A study of Mus musculus with 12 samples.

Results

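The comparison set 3 arrays of sparsely grown fibroblasts without focal adhesion kinase (FAK) against 3 arrays of sparsely grown fibroblasts of a line that was given FAK back. These 6 arrays, of 12 in the series, were taken by their labels of line and density and not by measured values. The comparison itself was chosen with earlier results of these data known. The KO cells are mouse embryonic fibroblasts of a line, distributed by a cell bank, in which the FAK gene Ptk2 is disrupted. The rescue cells are the single clone DA2, which was given FAK back, so that a difference between the lines can also be one of that clone. Rescue cells alone were kept in hygromycin (135 ug/ml) and non-essential amino acids, and line and medium cannot be told apart. Each culture began with 410000 cells in a 10 cm dish and was harvested after 24 h. Each line was cultured once on each of 3 experimental days, and values are listed below in the order of days 1, 2 and 3. The dense cultures of both lines (8200000 cells per dish) are used only to ask whether a difference depended on density.

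FAK is a cytoplasmic tyrosine kinase that is recruited to integrins where a cell grips the extracellular matrix. It binds Src and, with the scaffold p130Cas (Bcar1), paxillin and guanine nucleotide exchange factors, passes adhesion on to actin, cell movement and growth signalling. Its close relative Pyk2, encoded by Ptk2b, can take over part of its work in fibroblasts that lack FAK. Embryonic fibroblast cultures are mixed at the start. Hox and lineage genes are often used to read the body region and tissue layer a line came from, which was not tested here. Mesothelium, the flat epithelium that lines body cavities, is one such layer and shares keratins with other epithelia.

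Levels are log2 signals minus the 75th percentile of the array, differences are KO minus rescue on the log2 scale with the standard error from limma, and a gene was called at an adjusted p under 0.05. A gene is on in 1 line only where every array of the other line was not well above background for all of its probes. The fold between the lines is then given as a lower bound, and a log2 value printed for such a gene rests on background signal. The bound is set against the higher of the array's lowest well-above-background signal and the probe's own signal. Of 12411 genes tested, 6068 were called (48.9%), 2888 higher (23.3%) and 3180 lower (25.6%) in KO cells, and the median of all genes was 0.02. Of the called genes 47.6% were higher, against 30.6% when each array was centred on its median and 5.92% when it was scaled to the spike-in RNA. A gene on in KO cells only was called higher in 330 cases (2.66% of the genes tested), and a gene on in rescue cells only was called lower in 459 (3.7%). The KO and rescue arrays did not overlap for 7317 genes (59%). These are the shares against which the counts of each gene group below are read. Of the called genes, 6049 had the same sign on the single slide that held both lines, on day 2. That pair of arrays is part of the comparison that gave the calls, so that this count is no separate check. Where only some arrays of a line measured a gene above background, their number is given beside its difference. A median of a gene group is followed by its value under settings, other than spike-in scaling, that turned its sign or moved it by over 1.5 times. Normexp is another background correction. Spike-in scaling lowered the median of every gene group. It turned every positive median below 0 except those of mesothelial (3.30), skeletal muscle (0.93) and pluripotency and germ cell markers (0.39). Among those turned were integrins (-1.45), Wnt pathway genes (-1.07), the respiratory chain (-1.40), replication and mitosis (-1.37), and Eph receptors and ephrins (-0.52). The basement membrane (-1.16), keratin and intermediate filament (-0.80), Notch (-1.21) and complement (-1.27) lists turned as well. On days 1 and 3 each line had its own slide, and line and slide cannot be told apart. In RNA from whole cultures, fewer cells of a type and less RNA per cell cannot be told apart.

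The sparse KO arrays carried more spike-in RNA signal relative to the cells' own RNA, 2.80 to 4.18 log2 units above the 75th percentile against 1.66 to 2.27 in sparse rescue cells. On the dense arrays the order was the opposite, with 0.33 to 0.69 in KO cells and 0.90 to 1.71 in rescue cells. Scaled to the spike-in RNA, the median of all genes in sparse cells shifted by -1.58, and every difference below is relative to the bulk of each array. Arrays of 1 line correlated at 0.982 to 0.990 across genes and arrays of different lines at 0.834 to 0.847. In the authors' deposited value table the sparse day 3 columns correlated best with the scanner file of the other line (0.932 and 0.903, and -0.521 with their own), so that the scanner files, whose day 3 arrays lay with days 1 and 2 of their label, were used throughout.

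Promoters of 6 genes are shown, picked by no further rule from those of the 30 largest differences that were on in 1 line only. Other such genes, Wt1, Mycn and Postn among them, are not shown, so that the 6 do not stand for the group. Each is the 250 bases of RefSeq sequence (GRCm38.p6) before the start of the gene, read along the strand of the gene, with matches to 6 short motifs in capitals. The first 3 genes were on in KO cells and the last 3 in rescue cells.
Upk3b, chr5:136038246-136038495 (+): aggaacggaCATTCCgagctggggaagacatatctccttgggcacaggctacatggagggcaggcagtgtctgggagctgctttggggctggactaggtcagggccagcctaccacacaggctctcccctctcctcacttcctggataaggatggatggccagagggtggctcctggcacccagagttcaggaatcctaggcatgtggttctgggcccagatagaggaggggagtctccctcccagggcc
Lrrn4, chr2:132880863-132881112 (-): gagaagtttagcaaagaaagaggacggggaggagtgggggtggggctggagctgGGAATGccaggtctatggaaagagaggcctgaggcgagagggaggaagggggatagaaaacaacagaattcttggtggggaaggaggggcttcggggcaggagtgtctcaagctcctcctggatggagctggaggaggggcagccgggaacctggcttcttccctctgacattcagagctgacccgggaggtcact
Fgf5, chr5:98253934-98254183 (+): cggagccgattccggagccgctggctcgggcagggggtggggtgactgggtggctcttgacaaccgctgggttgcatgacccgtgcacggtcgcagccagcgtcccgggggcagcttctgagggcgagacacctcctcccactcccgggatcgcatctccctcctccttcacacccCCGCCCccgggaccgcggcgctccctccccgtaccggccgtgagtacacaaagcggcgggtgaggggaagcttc
Grem1, chr2:113758649-113758898 (-): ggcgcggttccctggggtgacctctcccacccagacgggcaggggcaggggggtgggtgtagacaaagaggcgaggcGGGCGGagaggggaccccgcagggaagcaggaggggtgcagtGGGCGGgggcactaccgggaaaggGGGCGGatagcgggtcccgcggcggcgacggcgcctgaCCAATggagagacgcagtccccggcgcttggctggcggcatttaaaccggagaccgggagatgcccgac
Twist2, chr1:91801211-91801460 (+): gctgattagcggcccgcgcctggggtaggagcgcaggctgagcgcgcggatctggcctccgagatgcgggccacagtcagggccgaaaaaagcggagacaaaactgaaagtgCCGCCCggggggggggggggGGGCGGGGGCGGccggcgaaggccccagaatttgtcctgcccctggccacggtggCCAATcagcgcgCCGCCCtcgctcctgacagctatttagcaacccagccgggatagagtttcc
Thbs2, chr17:14694263-14694512 (-): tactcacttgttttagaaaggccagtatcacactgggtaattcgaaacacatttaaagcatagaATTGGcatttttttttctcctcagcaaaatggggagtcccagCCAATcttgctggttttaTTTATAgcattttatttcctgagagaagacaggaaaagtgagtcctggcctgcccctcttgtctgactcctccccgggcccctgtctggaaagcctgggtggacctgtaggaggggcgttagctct
The first motif was the TATA box, spelled TATAAA, which binds the basal transcription machinery. The second was the GC box, spelled GGGCGG, a site of Sp factors. The third was the box spelled CCAAT, bound by the factor NF-Y. The AP-1 site of Fos and Jun proteins was searched as TGANTCA. The site of the TEAD partners of YAP was searched as GGAATG. The E-box bound by Snail and ZEB factors was searched as CACCTG. Each was searched on both strands, and adjacent matches run together. A match describes letters and not a bound factor. Both sets of 3 mix promoters poor and rich in CpG. Upk3b holds 2 CpG dinucleotides, Lrrn4 5 and Thbs2 3, whereas Fgf5 holds 24, Grem1 24 and Twist2 23. The GC box falls 4 times in Twist2 and 3 times in Grem1, and the CpG-poor Upk3b and Lrrn4 each hold 1 TEAD motif. Across the genes with a promoter in the table, the ratio of observed to expected CpG had a median of 0.48 for 251 genes on in KO cells only and 0.507 for 352 genes on in rescue cells only, beside 0.725 for 5074 genes that were not called. The AP-1 site was in 8.24% of promoters of genes on in rescue cells only, 4.78% of those on in KO cells only, 4.38% of those not called and 6.87% of all 27025 promoters. The CACCTG E-box was in 22.7%, 17.3%, 14.4% and 17.1% of promoters of genes on in KO cells only, on in rescue cells only, not called and of the whole table. In that order, the TEAD site was in 13.1%, 13.1%, 9.58% and 12.6% of promoters, and the GC box in 50.2%, 47.2%, 55.3% and 32.9%. The TATA box was in 10.4%, 11.4%, 7.45% and 13%, and CCAAT in 31.5%, 32.1%, 36.1% and 34.5%.

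Ptk2 itself was read by 2 probes. Where they bind in relation to the disrupted exons is not given here, so that they do not tell whether intact FAK mRNA was present. Probe A_52_P359381 had levels of 0.65, 0.23 and 1.24 in rescue cells and -1.76, -1.25 and -1.10 in KO cells. The groups did not overlap, and the difference in the fit of all kept probes was -2.08 ± 0.31 (adjusted p = 0.000162). Probe A_51_P216219 had 0.08, 0.38 and 0.48 in rescue cells and 0.18, 0.07 and 0.36 in KO cells, overlapping groups with a difference of -0.11 ± 0.19 (adjusted p = 0.649). Ptk2b, the gene of Pyk2, was higher in KO cells on both of its probes. Its levels were -1.78, -0.70 and -0.73 in rescue cells and 0.03, 0.74 and 0.43 in KO cells, a difference of 1.47 ± 0.32 (adjusted p = 0.00213), and the second probe rose by 1.88 ± 0.25. Of 26 tested genes of FAK, Src and CAS signalling, 5 were higher and 5 lower, a share of calls below that of all genes, with a median of -0.20, or -0.50 centred on the median and -0.31 on the shared slide. The higher ones, beside Ptk2b, were Arhgap26, the GTPase-activating protein GRAF that binds FAK (2.31 ± 0.43, with 2 of 3 rescue arrays above background), Arhgef28, an exchange factor for RhoA that binds FAK (2.21 ± 0.30), Arhgef7, the exchange factor beta-PIX (1.67 ± 0.18), and the adaptor Crkl (1.28 ± 0.15). The lower ones were Elmo1, a partner of Dock1 (-2.77 ± 0.34, with its probe above background on no KO array), Nedd9, the Cas family scaffold HEF1 (-1.62 ± 0.20), Asap1 (-1.61 ± 0.22), Fyn (-1.27 ± 0.18) and Src (-0.81 ± 0.19). The scaffold Bcar1 (-0.16 ± 0.25), paxillin (-0.12 ± 0.25), Yes1 (0.02 ± 0.33) and Csk (-0.08 ± 0.22) were not called. With normexp background correction the calls on Elmo1 (-0.09), Fyn (-0.66) and Arhgap26 (1.18) were lost.

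Of 16 integrin subunits tested, 3 were higher and 6 lower, with a median of 0.13, or 0.02 with quantile normalization, -0.17 centred on the median and -0.27 on the shared slide. Itga5, the alpha subunit of the fibronectin receptor, had levels of 1.83, 2.05 and 2.22 in rescue cells and -1.12, -1.01 and -0.88 in KO cells, a difference of -3.04 ± 0.21 (adjusted p = 2.09e-07). Its partner Itgb1 was lower by a smaller amount (-0.73 ± 0.25, adjusted p = 0.0286; not called at -0.64 without rescue day 1, -0.69 without rescue day 2 or -0.55 without KO day 1), and Itgb5, which pairs with alpha v, by -1.13 ± 0.16. Itga11, a collagen receptor subunit of fibroblasts, was on in rescue cells only, at least 57.9-fold lower in the KO line, and Itgb7, best known in leukocytes, differed by -6.25 ± 0.20. Itga7, a laminin receptor subunit of muscle, was the largest rise at 4.17 ± 0.24 (adjusted p = 3.88e-08), with levels of -4.87, -4.74 and -4.22 in rescue and -0.55, -0.36 and -0.42 in KO cells. Itgb3, the beta subunit of the vitronectin receptor, was higher by 0.84 ± 0.23, whereas the alpha subunits Itgav (0.44 ± 0.26), Itga3 (0.12 ± 0.32) and Itga6 (0.27 ± 0.33) were not called. Of 32 adaptors of the adhesion plaque, 3 were higher and 15 lower (median -0.59, or -0.89 centred on the median and -0.30 on the shared slide). Parvb, the beta-parvin that binds integrin-linked kinase (-5.21 ± 0.44, with 1 of 3 KO arrays above background), and Sorbs2, an adaptor of stress fibres on in rescue cells only (at least 10.2-fold lower in the KO line), differed most among the lower ones. Kank1, which sits at the rim of adhesions, was higher by 6.20 ± 0.18.

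**Figure D1:**
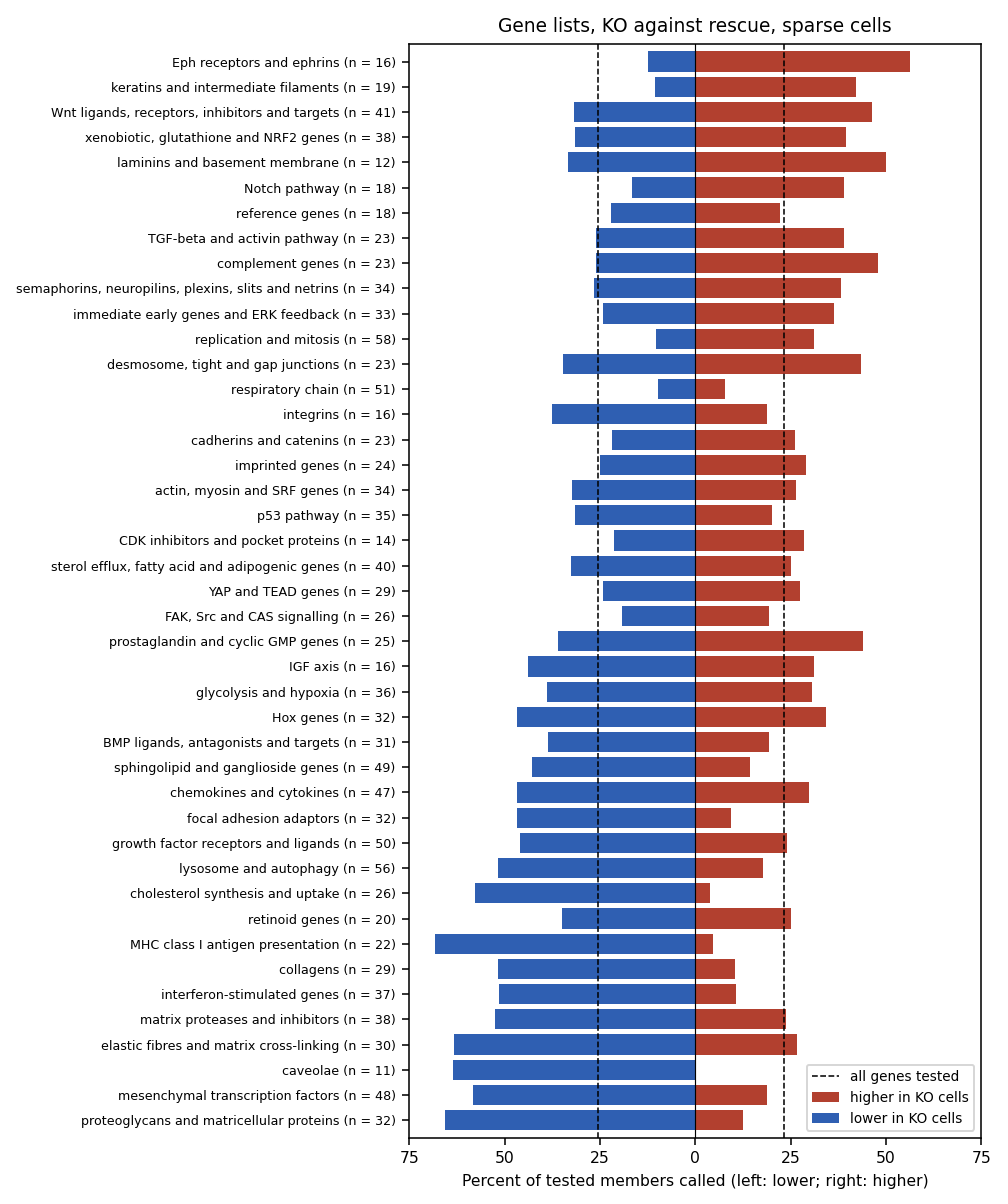
Percent of the tested members of each of 43 gene lists called higher (right, red) or lower (left, blue) in sparse KO cells, ordered by the median difference, with dashed lines at the shares of all genes tested, 23.3% and 25.6%. Proteoglycans and matricellular proteins, mesenchymal transcription factors and caveolae lie at the bottom, and the respiratory chain shows few calls in either direction.

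Genes of mesothelium were on or bright in KO cells. Of 18 tested markers, 13 were higher in KO cells and 1 lower, with a median of 4.88; 4 of them, Upk3b, Wt1, Lrrn4 and Bnc1, were on in KO cells only. Wt1, the transcription factor of the mesothelium and kidney, had levels of -7.61, -7.92 and -7.35 in rescue cells and 4.83, 4.56 and 4.43 in KO cells. Lrrn4, a membrane protein of mesothelial cells, had -7.87, -8.21 and -7.62 in rescue and 2.74, 2.70 and 2.60 in KO cells, at least 403-fold higher in the KO line (adjusted p = 1.89e-11). No rescue array came near a KO array for either gene. Bnc1, a zinc finger protein of mesothelial and basal cells, was at least 278-fold higher in the KO line. Krt18, a keratin of simple epithelia, was well above background on every array and rose from -1.39, -1.75 and -1.87 in rescue cells to 6.82, 7.02 and 6.75 in KO cells, a difference of 8.53 ± 0.17 (adjusted p = 1.44e-11). Its usual partner Krt8 was not called (-0.07 ± 0.24), while Krt7 (4.48 ± 0.32) and Krt14 (3.44 ± 0.30) were higher. Ezrin, the linker of membrane to actin in microvilli, was higher by 5.22 ± 0.24, the tight junction gene Cldn15 by 4.53 ± 0.24, the uroplakin Upk1b by 9.02 ± 0.26, with 2 of 3 rescue arrays above background, the glycoprotein Gpm6a by 9.22 ± 0.74, with 1 of 3 rescue arrays above background, the Wnt amplifier Rspo1 by 7.04 ± 0.93, with 1 of 3 rescue arrays above background, and the transcription factor Tbx18 by 2.28 ± 0.16. Msln, mesothelin, went the other way, with 5.08, 5.38 and 4.57 in rescue and 3.68, 3.75 and 3.68 in KO cells (-1.31 ± 0.22, adjusted p = 0.000387). C2 and Pdpn were not called (0.24 ± 0.28, with 2 of 3 arrays above background in each line and 0.43 ± 0.42), and of the other listed markers Muc16, Calb2 and Aldh1a2 were not tested.

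The label of fibroblasts held for part of the KO line's genes. Of 17 fibroblast markers tested, 5 were higher and 9 lower in KO cells (median -1.29). Twist2 and Postn, a transcription factor of dermal fibroblasts and the matricellular protein periostin, were not well above background on any KO array. Pdgfrb, a receptor for platelet-derived growth factor, had levels of 3.36, 3.85 and 4.09 in rescue cells and -4.38, -3.48 and -3.51 in KO cells, a difference of -7.56 ± 0.34 (adjusted p = 3.28e-09). Prrx1, a homeobox factor of limb and body wall mesenchyme, differed by -4.83 ± 0.21, S100a4 by -2.64 ± 0.29, vimentin by -2.11 ± 0.37, Col1a1 by -2.41 ± 0.18, Col3a1 by -1.29 ± 0.21 and Col1a2 by -1.19 ± 0.22. The collagen transcripts and vimentin were nonetheless bright in both lines. Decorin, a small proteoglycan, rose from 1.41, 1.55 and 0.75 in rescue cells to 5.80, 6.29 and 5.93 in KO cells (4.77 ± 0.26), and Cd34 (5.30 ± 0.20), Fbln1 (1.29 ± 0.25), Pdgfra (1.23 ± 0.32) and Twist1 (0.81 ± 0.15) were higher too. Other cell types were covered by shorter lists. The 10 epithelial markers tested gave 3 higher and 1 lower, 6 endothelial ones 2 and 1, and 7 neuronal and glial ones 3 and 2. Of 5 macrophage and leukocyte markers 2 were lower. The smooth muscle list gave 4 higher and 2 lower of 8, led by desmin (3.19 ± 0.21), and Acta2 was not called (-0.31 ± 0.24). Of 4 skeletal muscle markers 3 were higher, Actn3 most (5.77 ± 0.55, with 1 of 3 rescue arrays above background). Of 6 bone and cartilage markers 2 were lower, and of 3 adipocyte markers Lpl was higher (6.81 ± 0.29) and Pparg lower (-5.31 ± 0.29). Of 6 pluripotency and germ cell markers 3 were higher and 1 lower. Among the higher was Lin28b, which was at least 39.7-fold higher in the KO line.

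**Figure D2:**
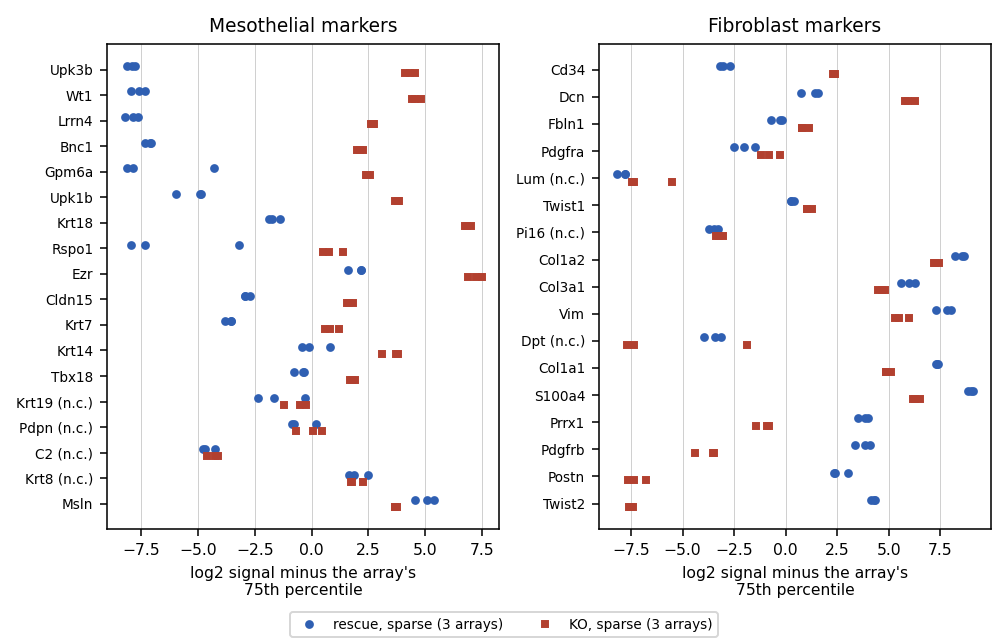
Levels of the mesothelial (left) and fibroblast (right) markers on each of the 6 sparse arrays, log2 signal minus the array's 75th percentile, with rescue arrays as blue circles and KO arrays as red squares; n.c. marks genes that were not called. Twist2 lies above 4 on the rescue arrays and below -7 on the KO arrays, and Upk3b below -7 and above 4.

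Transcription factors of mesenchyme were lower more often than higher. Of 48 tested, 28 were lower and 9 higher (median -1.47, or -0.13 with normexp), and 12 were on in rescue cells only against 2 in KO cells only. Eya1, a coactivator in the development of the ear, kidney and branchial arches, was at least 151-fold lower in the KO line. Tbx3, a T-box factor of limb and heart, was at least 108-fold lower in the KO line. Prrx2 was well above background on every array and fell from 4.38, 4.60 and 4.54 in rescue cells to -4.25, -4.63 and -4.96 in KO cells (-9.12 ± 0.21, adjusted p = 2.15e-11). The largest rises in the list were in factors of visceral and cardiac mesoderm. Tcf21, a factor of epicardium and visceral fibroblasts, had -7.78, -7.82 and -7.31 in rescue cells and 1.30, 1.35 and 1.32 in KO cells, at least 158-fold higher in the KO line. Hand2, a factor of heart and limb, was higher by 6.76 ± 0.54, with 1 of 3 rescue arrays above background (adjusted p = 6.1e-07). Runx2 (0.17 ± 0.25) and Foxc1 (-0.16 ± 0.29) were not called.

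The Hox genes divided by cluster. Hox genes lie in 4 clusters whose members are used in order along the body axis. All 9 tested genes of the Hoxb cluster were lower in KO cells, with differences of -2.15 to -5.16, whereas the 4 tested Hoxd genes and 3 of 4 Hoxc genes were higher. The probes that stood for Hoxd3 and for 1 of these 3 Hoxc genes were not well above background on any sparse array, so that these calls rest on background signal. Hoxb5 had levels of 1.13, 1.04 and 0.90 in rescue cells and -4.06, -4.11 and -4.25 in KO cells, a difference of -5.16 ± 0.19 (adjusted p = 5.87e-10). Hoxb8 differed by -3.99 ± 0.27, Hoxb6 by -3.91 ± 0.28, Hoxb9 by -3.75 ± 0.41, Hoxb13 by -3.38 ± 0.44, with 2 of 3 KO arrays above background, Hoxb2 by -3.15 ± 0.18, Hoxb4 by -3.09 ± 0.21, Hoxb7 by -2.83 ± 0.24 and Hoxb3 by -2.15 ± 0.22. All of these Hoxb genes were well above background on some arrays of each line. Hoxd4 was on in KO cells only, with -7.94, -7.96 and -6.59 in rescue cells and 1.93, 1.56 and 1.79 in KO cells, at least 213-fold higher in the KO line (adjusted p = 4.2e-09). Hoxd8 was at least 71.5-fold higher in the KO line, Hoxc9 at least 118-fold higher in the KO line and Hoxc10 at least 10.2-fold higher in the KO line, and Hoxd9 was higher by 3.24 ± 0.53. Hoxd3 was called higher (1.94 ± 0.37) on a probe that passed the dim filter through dense cells and was not well above background on any sparse array, and without that filter a brighter probe stood for the gene and gave -0.04. The Hoxa cluster was mixed, with 3 genes higher and 4 lower of 9. Hoxa10, the last of them by number, was at least 27.8-fold higher in the KO line. Hoxa2 (-2.84 ± 0.21), Hoxa9 (-2.30 ± 0.21) and Hoxa5 (-1.51 ± 0.24) were lower. The calls on both smaller rises were lost without 1 array or another, for Hoxa7 (1.42 ± 0.42; not called at 1.26 without rescue day 1 or 1.30 without KO day 1) and Hoxa6 (0.62 ± 0.22; not called at 0.56 without rescue day 1, 0.65 without rescue day 2, 0.65 without rescue day 3, 0.45 without KO day 2 or 0.66 without KO day 3). Of the cofactors, Meis3 was lower (-1.01 ± 0.24) and Pbx2 was higher (1.06 ± 0.27).

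**Figure D3:**
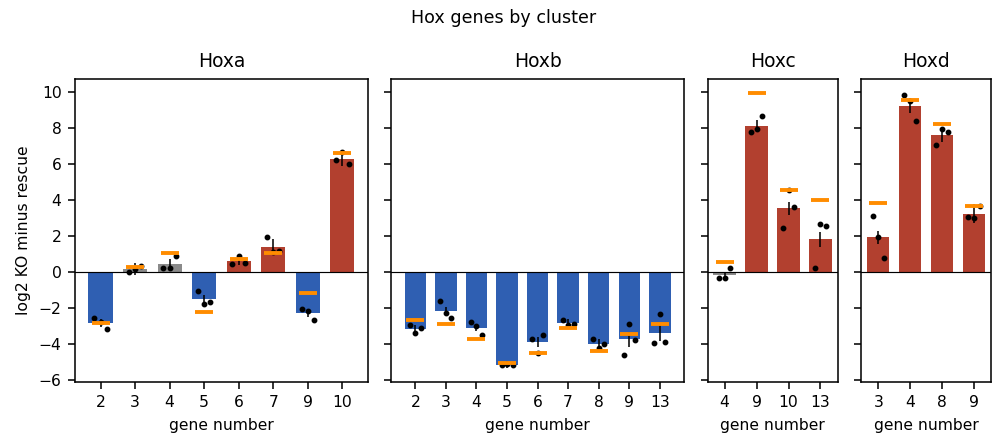
Difference KO minus rescue in sparse cells (log2; bars with the standard error) for tested genes of each Hox cluster (1 left out), in the order of their numbers, with black points for days 1 to 3 and an orange dash for the difference in dense cells; red bars are called higher, blue bars called lower and grey bars not called. Every Hoxb bar lies below 0 and every Hoxd bar above it.

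Genes of the matrix itself were more often lower. Of 32 proteoglycans and matricellular proteins, 21 were lower and 4 higher, with a median of -1.56, or -0.46 with normexp, and 8 were on in rescue cells only. Periostin had levels of 2.41, 2.34 and 3.01 in rescue cells and -6.80, -7.37 and -7.63 in KO cells, at least 242-fold lower in the KO line. Thrombospondin 2, Thbs2, which restrains vessel growth, was at least 303-fold lower in the KO line, and Ccn5 at least 46.7-fold lower in the KO line. Osteopontin, Spp1, differed by -5.83 ± 0.29 and the filament protein Matn2 by -5.01 ± 0.27. Smoc1, a BMP-modulating matrix protein, was higher by 3.96 ± 0.30, with 2 of 3 rescue arrays above background, and Sparc (-0.33 ± 0.29) and Ccn2 (-0.17 ± 0.34), both bright in each line, were not called. Of 30 genes of elastic fibres and cross-linking, 19 were lower and 8 higher (median -1.29). Emilin2 fell from 5.04, 5.23 and 4.71 to -4.06, -4.69 and -4.24 (-9.33 ± 0.20, adjusted p = 1.89e-11) with every array well above background. Pcolce2, an enhancer of procollagen processing, was at least 177-fold lower in the KO line, and the lysyl oxidase Loxl4 at least 42.4-fold lower in the KO line. In the opposite direction, Mfap4, a fibre-associated protein, was higher by 7.23 ± 0.43, with 1 of 3 rescue arrays above background, and fibrillin 2, Fbn2, was at least 76.7-fold higher in the KO line. Of 29 collagens, 15 were lower and 3 higher, with Col7a1, the anchoring fibril collagen (-4.11 ± 0.41), and Col27a1 (-4.29 ± 0.48, with its probe above background on no KO array) among the lower ones, the latter not called with normexp (-0.72). Col8a2 was on in KO cells only, at least 15.8-fold higher in the KO line. The basement membrane list leaned the other way, with 6 of 12 higher and 4 lower. Laminin alpha 5, a main laminin chain of epithelial basement membranes, rose from -4.02, -4.03 and -4.34 in rescue cells to 4.24, 3.73 and 3.07 in KO cells (7.81 ± 0.29, adjusted p = 7.35e-10). Fras1 (4.32 ± 0.61, with 2 of 3 rescue arrays above background), agrin (3.13 ± 0.25) and Nid2 (2.89 ± 0.22) were higher, and Nid1 was lower (-1.90 ± 0.21).

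Of 38 matrix proteases and inhibitors, 20 were lower and 9 higher. Adamts2, a procollagen peptidase, was lower (-4.11 ± 0.29), and the membrane protease Mmp17 (5.92 ± 0.34), Mmp23 (5.15 ± 0.41) and Adamts7 (4.02 ± 0.22) were higher. Of 11 caveola genes 7 were lower and the other 4 were not called, with caveolin 2 (-3.12 ± 0.22) and caveolin 1 (-1.86 ± 0.28) among the lower. Of 34 genes of actin, myosin and their regulator SRF, 9 were higher and 11 lower, close to the shares of all genes. Calponin 2 was lower (-2.82 ± 0.28) and calponin 1 higher (2.46 ± 0.20), and Tagln was higher (1.71 ± 0.29). Of 29 genes of YAP and TEAD, 8 were higher and 7 lower. The DNA-binding partners Tead3 (2.78 ± 0.51, with 2 of 3 rescue arrays above background), Tead4 (2.07 ± 0.26) and Tead1 (1.80 ± 0.28) were higher, while the target genes Ankrd1 (-0.46 ± 0.35) and Ccn2 were not called.

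Genes of cell contacts changed in both directions. Of 23 cadherins and catenins, 6 were higher and 5 lower. Celsr1, a cadherin of planar cell polarity (7.26 ± 0.33, with 2 of 3 rescue arrays above background), and Pcdh7, which was at least 10.7-fold higher in the KO line, led the higher ones, and T-cadherin, Cdh13, was at least 49.8-fold lower in the KO line and Fat4 at least 12.3-fold lower in the KO line. Alpha-catenin Ctnna1 was not called (-0.44 ± 0.27). Of 23 genes of desmosomes, tight and gap junctions, 10 were higher and 8 lower. Perp, a desmosomal protein and p53 target, had 3.91, 4.69 and 4.13 in rescue cells and -7.25, -5.84 and -6.06 in KO cells, at least 762-fold lower in the KO line. Plakophilin 1, Pkp1, was at least 28.4-fold lower in the KO line and Jam2 at least 15.5-fold lower in the KO line, while F11r, the junctional adhesion molecule of epithelia, was higher by 2.73 ± 0.20. Connexin 43, Gja1, and the tight junction protein Tjp1 were not called (0.10 ± 0.18 and -0.49 ± 0.29). Of 19 keratins and other intermediate filament genes, 8 were higher and 2 lower. Beside the keratins, peripherin (5.68 ± 0.55, with 1 of 3 rescue arrays above background), synemin (4.63 ± 0.23, with 1 of 3 rescue arrays above background) and nestin (2.49 ± 0.23) were higher.

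Signalling ligands and receptors separated the lines gene by gene. Of 41 Wnt pathway genes tested, 19 were higher and 13 lower (median 0.51, or 0.26 with quantile normalization, 0.21 centred on the median and 0.26 with the slide as a block), with 6 on in KO cells only and 5 in rescue cells only. Wnt10a rose from -6.12, -5.42 and -6.53 in rescue cells to 1.05, 1.88 and 1.66 in KO cells (7.55 ± 0.35, with 1 of 3 rescue arrays above background), Wnt6 was at least 12.9-fold higher in the KO line and the receptor Fzd3 at least 16.6-fold higher in the KO line. Wnt10b was at least 18.2-fold lower in the KO line and the receptor Fzd8 at least 9.91-fold lower in the KO line. Thus the paralogues Wnt10a and Wnt10b were on opposite sides. Of 31 BMP genes, 6 were higher and 12 lower, with a median of -0.41, or 0.07 with normexp, -0.71 centred on the median and -0.63 on the shared slide. The ligands Bmp6 and Gdf6 were on in KO cells only, at least 60.3-fold higher in the KO line and at least 21.1-fold higher in the KO line, and Bambi, a decoy receptor, was higher by 4.13 ± 0.19. The antagonist Grem1 had 5.42, 5.37 and 5.21 in rescue cells and -7.20, -7.14 and -5.84 in KO cells, at least 1623-fold lower in the KO line, and the receptor Bmpr1b was at least 4.30-fold lower in the KO line. The early target Id1 was not called (0.41 ± 0.30). Of 23 TGF-beta and activin genes, 9 were higher and 6 lower. Lefty1, a secreted Nodal inhibitor, was at least 43.1-fold higher in the KO line and the activin receptor Acvr2b at least 26.2-fold higher in the KO line, while the activin subunit Inhba was lower (-2.91 ± 0.30) and Smad2 (-0.09 ± 0.17) and Smad4 (0.00 ± 0.19) were not called.

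Of 50 other growth factors and receptors, 23 were lower and 12 higher (median -0.66, or -0.15 with normexp). The VEGF receptor Flt1 was at least 216-fold lower in the KO line. Fgf7, a mesenchymal factor that acts on epithelium, fell from 3.24, 3.30 and 4.36 to -4.47, -4.88 and -5.45 (-8.57 ± 0.67, with 1 of 3 KO arrays above background, adjusted p = 5.54e-07). Fgf5, by contrast, was on in KO cells only, with -7.41, -8.06 and -7.17 in rescue cells and 2.96, 2.64 and 2.74 in KO cells, at least 431-fold higher in the KO line. Met, the receptor for hepatocyte growth factor, was not called (0.03 ± 0.21). Of 16 Eph receptors and ephrins, 9 were higher and 2 lower (median 1.06, and -0.52 with spike-in scaling). Efna5 rose by 8.27 ± 0.24, Epha4 by 2.96 ± 0.27 and Efnb1 by 2.57 ± 0.21, Efna2 was at least 8.38-fold higher in the KO line, and Epha3 at least 7.19-fold lower in the KO line. Of 34 guidance genes of the semaphorin, plexin, slit and netrin families, 13 were higher and 9 lower. Sema3d was at least 38.8-fold higher in the KO line, Plxnb1 at least 36.8-fold higher in the KO line and Slit3 higher by 5.87 ± 0.22, whereas Sema7a was lower (-6.00 ± 0.52, with 1 of 3 KO arrays above background) and netrin 1, Ntn1, was at least 9.19-fold lower in the KO line. Of 18 Notch pathway genes, 7 were higher and 3 lower. The ligands Jag2, at least 8.14-fold higher in the KO line, and Jag1 (2.68 ± 0.33) and the target Hey1 (3.49 ± 0.27) were higher, and the receptor Notch3 was at least 13.3-fold lower in the KO line. In the insulin-like growth factor axis 5 of 16 genes were higher and 7 lower. Igfbp5 was at least 30.3-fold higher in the KO line, while Igfbp7 (-3.40 ± 0.27), Igf1 (-3.39 ± 0.22, with 2 of 3 KO arrays above background) and Igfbp4 (-1.54 ± 0.33) were lower.

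Genes of immune defence differed in both directions. Of 22 genes of MHC class I antigen presentation, 15 were lower and 1 higher (median -0.79). H2-M3 fell by 3.24 ± 0.29 and H2-Q1 by 2.46 ± 0.22, although H2 genes have near-identical copies that a probe may not separate. Tap2, which helps to carry peptides into the endoplasmic reticulum, was the single higher member (1.84 ± 0.54, with 1 of 3 rescue arrays above background; not called at 1.61 without rescue day 2, and the value was 1.16 without KO day 2). Of 37 interferon-stimulated genes, 19 were lower and 4 higher, with a median of -0.88, or 0.10 with normexp. Rtp4 was at least 16.8-fold lower in the KO line and the guanylate-binding protein Gbp2 was lower (-4.47 ± 0.47, with 1 of 3 KO arrays above background), whereas tetherin, Bst2 (4.44 ± 0.20), and Oasl1 (4.76 ± 0.27, with 1 of 3 rescue arrays above background) were higher. Of 47 genes of chemokines, cytokines and their receptors, 22 were lower and 14 higher. Il1rl1, the receptor for interleukin 33, was at least 109-fold lower in the KO line, Ccl8 at least 14.1-fold lower in the KO line and Ccl9 lower (-6.00 ± 0.21), while Cxcl16 was higher by 5.91 ± 0.34, with 2 of 3 rescue arrays above background, and the death receptor Tnfrsf21 was at least 33.0-fold higher in the KO line. The receptor of Cxcl16, Cxcr6, was on in rescue cells only, at least 28.3-fold lower in the KO line. Of 23 complement and coagulation genes, 11 were higher and 6 lower. C3, the central complement component, rose from a mean of -3.11 ± 0.12 (SD, n = 3) in rescue cells to 4.17, 4.60 and 4.50 in KO cells (7.53 ± 0.21, adjusted p = 8.57e-11), Serping1, the C1 inhibitor, was at least 12.8-fold higher in the KO line and Cd55 at least 11.1-fold higher in the KO line, and thrombomodulin, Thbd, was at least 105-fold lower in the KO line.

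Lipid mediators and cyclic GMP showed large differences on both sides. Of 25 genes, 11 were higher and 9 lower, with a median of -0.23, or 0.30 with normexp, -0.53 centred on the median and 0.50 on the shared slide. Both subunits of the nitric oxide receptor, soluble guanylate cyclase, were on in KO cells only: Gucy1b1, the neighbour of Gucy1a1 on chromosome 3, had -7.44, -7.87 and -7.28 in rescue cells and 1.35, 1.32 and 1.34 in KO cells, at least 159-fold higher in the KO line. Enzymes of prostaglandin synthesis lay on opposite sides. Ptgs2, the inducible cyclooxygenase, fell from 3.44, 2.81 and 3.31 to -4.15, -4.89 and -4.27 (-7.62 ± 0.27), and Ptges, the prostaglandin E synthase, was at least 103-fold lower in the KO line, while the prostacyclin synthase Ptgis was at least 1046-fold higher in the KO line. Of 49 sphingolipid genes, 21 were lower and 7 higher. The receptor S1pr1 was at least 34.1-fold lower in the KO line, and the neutral sphingomyelinase Smpd3 (6.94 ± 0.20), the ceramide synthase Cers4 (6.40 ± 0.41, with 2 of 3 rescue arrays above background) and the ganglioside GD3 synthase St8sia1 (5.02 ± 0.36, with 2 of 3 rescue arrays above background) were higher. Of 26 genes of cholesterol synthesis and uptake, 15 were lower and 1 higher, Mvk (-2.47 ± 0.25) and Tm7sf2 (-2.62 ± 0.22) among the lower. Of 40 genes of sterol efflux and fat storage, 10 were higher and 13 lower, with Mgll, the monoacylglycerol lipase, at least 68.9-fold higher in the KO line and the droplet protein Plin4 at least 73.6-fold lower in the KO line. Of 20 retinoid genes, 5 were higher and 7 lower: the retinaldehyde dehydrogenase Aldh1a1 rose by 8.43 ± 0.27 and the receptor Rarb was at least 11.5-fold lower in the KO line.

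Metabolic lists ranged widely in their share of called genes. Of 51 respiratory chain genes, 4 were higher and 5 lower, which is 17.6% called against 48.9% of all genes, and the median was 0.18, or 0.01 with normexp, -0.12 centred on the median and 0.03 with the slide as a block. Of 58 replication and mitosis genes, 18 were higher and 6 lower (median 0.21, or 0.07 with normexp, -0.10 centred on the median, 0.35 with the slide as a block and 0.32 on the shared slide). E2f2 was the largest rise there (2.54 ± 0.24), with Foxm1 (1.64 ± 0.26) and Mcm4 (1.55 ± 0.18). Of 36 genes of glycolysis and hypoxia, 11 were higher and 14 lower. The neuronal-type glucose transporter Slc2a3 had -6.99, -7.87 and -7.16 in rescue cells and 2.38, 2.52 and 2.44 in KO cells, at least 343-fold higher in the KO line, the lactate dehydrogenase subunit Ldhb was higher by 3.41 ± 0.31, and Bnip3, a mitophagy receptor, was lower (-5.34 ± 0.28). Of 38 genes of detoxification, 15 were higher and 12 lower, with the aldehyde dehydrogenase Aldh3a1 at least 8.49-fold lower in the KO line and Ahrr, the repressor of the dioxin receptor, at least 8.15-fold higher in the KO line. Of 56 lysosome and autophagy genes, 29 were lower and 10 higher. Gpnmb, a glycoprotein of lysosomes and melanosomes, was at least 157-fold lower in the KO line, the cathepsin Ctso at least 22.8-fold lower in the KO line, and the mannosidase Manba was higher (2.81 ± 0.18). Of 33 immediate early and ERK feedback genes, 12 were higher and 8 lower. Fos (2.82 ± 0.27) and Etv5 (3.38 ± 0.27) were higher and Fosl1 lower (-2.15 ± 0.51), and Mycn was at least 446-fold higher in the KO line. The reference genes divided as well, with 4 higher, Gapdh (0.89 ± 0.18) and Tfrc (0.99 ± 0.27) among them, and 4 lower, Pgk1 (-1.97 ± 0.21) and Gusb (-0.95 ± 0.15) among them, of 18 tested.

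Fibroblasts without FAK are commonly kept on a background that also lacks p53, and the p53 status of these lines is not given in the sources used here. Trp53 had 2.08, 1.83 and 1.90 in rescue cells and 1.19, 1.16 and 1.18 in KO cells (-0.76 ± 0.27, adjusted p = 0.0345), and its second probe differed by -0.45 ± 0.26 (adjusted p = 0.172), which was not called. The call on the first probe was lost when any 1 of the 6 sparse arrays was left out (values of -0.81 to -0.69). Of 35 p53 pathway genes, 7 were higher and 11 lower, a share near that of all genes. Pmaip1, the BH3 protein Noxa (6.11 ± 0.18), Tigar (3.22 ± 0.26) and Btg2 (2.87 ± 0.33) were higher, and Cdkn1a, the inhibitor p21, was lower (-1.21 ± 0.23). Of 14 CDK inhibitors, partners and pocket proteins, 4 were higher and 3 lower. Cdkn1b, the inhibitor p27 (2.03 ± 0.19), and the cyclins Ccnd2 (1.30 ± 0.17) and Ccnd3 (1.16 ± 0.21) were higher, and Cdkn2b (-2.36 ± 0.21), Cdkn1a and Rb1 (-1.12 ± 0.20) lower. Cdkn2a was bright and not called (0.07 ± 0.21), with 2.15, 2.44 and 2.01 in rescue cells and 2.19, 2.51 and 2.09 in KO cells.

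The genes beside the largest differences were called about as often as any gene. For the 30 genes with the largest differences, 31 of 60 nearest tested neighbours in the RefSeq order were called (51.7%, beside 48.9% of all genes), and 21 differed by 2-fold or more. The median absolute difference of a neighbour was 0.591, beside 0.645 over all genes. Neither neighbour was called for 6 of the 30 genes, and 3 of these are given as examples, chosen for that. Slc14a1, a urea transporter, was at least 1722-fold lower in the KO line, between Atp5a1 (0.05 ± 0.34) and Slc14a2 (-0.10 ± 0.31). Vopp1 was at least 465-fold lower in the KO line, between Lancl2 (-0.20 ± 0.22) and Vmn1r25 (-0.21 ± 0.24). Twist2 lay between Asb1 (-0.05 ± 0.21) and Hdac4 (-0.20 ± 0.24). On chromosome 6, tested genes in the order of the annotation alternated. Sgce (-1.48 ± 0.21) and Peg10 (-1.36 ± 0.23, and 0.11 with normexp), both imprinted, were lower. Ppp1r9a was at least 44.0-fold higher in the KO line, Pon3 was lower (-1.22 ± 0.26) and Pon2 not called (-0.19 ± 0.18). Asb4 was at least 53.4-fold lower in the KO line, with 0.55, 0.49 and 0.18 in rescue cells and -7.47, -7.52 and -7.66 in KO cells. Its neighbour Dync1i1, a dynein chain, was at least 60.9-fold higher in the KO line, with -7.98, -8.26 and -7.70 in rescue cells and -0.09, -0.01 and -0.03 in KO cells, and Slc25a13, a mitochondrial carrier, was at least 495-fold higher in the KO line. Sem1, next in line, was not called (0.05 ± 0.21). Of 24 imprinted genes, 7 were higher and 6 lower; Peg3 was at least 205-fold higher in the KO line, and Copg2, the neighbour of Mest, was not called (0.21 ± 0.26).

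Differences were also uneven between chromosomes. The median over all tested genes of a chromosome was -0.60 on chromosome 10 (590 genes, 10.3% higher and 49.3% lower) and -0.58 on the X chromosome (394 genes, 11.9% and 45.7%). It was 0.45 on chromosome 17 (590 genes, 40% higher and 13.1% lower), 0.41 on chromosome 6 and 0.31 on chromosome 8, against 23.3% higher and 25.6% lower over all genes. Each of these medians had the same sign on all 3 days, day 2 being the shared slide, although these arrays also gave the medians. In dense cells the signs were the same and the medians were -0.54, -0.62, 0.45, 0.44 and 0.37. These are separate arrays, but of the same lines, days and slides, so that line and slide are confounded there too. On the shared slide alone they were -0.59, -0.62, 0.45, 0.41 and 0.28. A number of chromosome copies in either line was not measured, and its part in these medians was not tested. Of 6 tested Y-linked genes, 4 were on in rescue cells only. Ddx3y had 0.06, -0.02 and -0.02 in rescue cells and -7.17, -7.26 and -7.45 in KO cells, at least 40.4-fold lower in the KO line (adjusted p = 2.03e-10), Eif2s3y was at least 28.2-fold lower in the KO line and Kdm5d at least 9.35-fold lower in the KO line. The fourth, Rbmy, a dim multicopy gene, was at least 1.21-fold lower in the KO line and differed by 0.34 with normexp background correction. Zfy2, by contrast, was well above background on every sparse array of both lines and was not called (0.05 ± 0.27). Its levels were -3.22, -3.52 and -2.54 in rescue cells and -3.06, -3.34 and -2.74 in KO cells. Uty was not well above background on any sparse array, and Xist did not pass the filter on dim probes in any group.

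**Figure D4:**
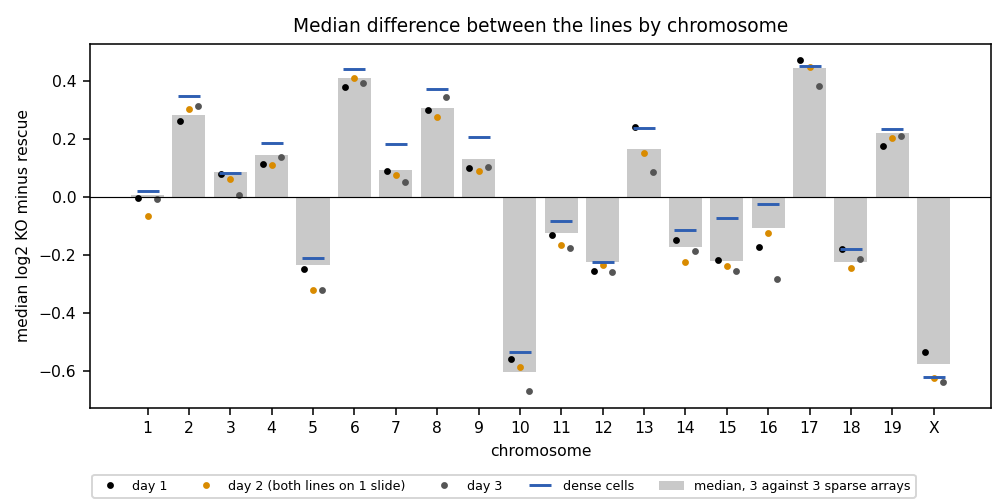
Median difference KO minus rescue (log2) over the tested genes of each chromosome, as grey bars for the 3 against 3 sparse arrays, points for days 1 to 3 and blue dashes for dense cells; chromosome Y, with 6 tested genes, is left out. Chromosomes 10 and X lie at -0.60 and -0.58, and chromosomes 17 and 6 at 0.45 and 0.41.

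The last comparison asked which of these differences varied in size or direction with density, by the interaction of line and density. It was called for 2583 genes (20.8%), more positive in sparse cells for 1181 (9.52%) and more negative for 1402 (11.3%). Each interaction is relative to the bulk of the arrays. The spike-in signal differed between the lines in opposite directions at the 2 densities, and interactions under spike-in scaling were not compared. Of the 6068 genes called in sparse cells, 1492 had a called interaction, and 362 of these 1492 were not called in dense cells. Of the 6068, 146 were called in opposite directions at the 2 densities. Abca1, the cholesterol exporter, had -7.24, -6.33 and -7.77 in sparse rescue cells, where no array was well above background, and -0.13, -0.94 and -0.75 in sparse KO cells. It was at least 41.2-fold higher in the KO line in sparse cultures and was not called in dense ones (-0.45), and its interaction was called (adjusted p = 2.86e-05). Haptoglobin, Hp, was likewise at least 10.2-fold higher in the KO line in sparse cultures, with 0.09 in dense cells, which was not called. Selenop, the plasma selenium carrier, differed by 5.74 in sparse cells, with 1 of 3 rescue arrays above background, and by -0.74 in dense cells, which was not called (interaction adjusted p = 0.000155). Oasl2, an interferon-stimulated gene, changed sides, with 1.85 in sparse cells, where 1 of 3 rescue arrays was above background, and -3.40 in dense cells. The peptidase Mme changed sides too (1.42 and -3.96), and its arrays of all groups were above background. Tgfbi, a matrix protein induced by TGF-beta, was lower at both densities, at -3.89 in sparse cells, with 2 of 3 KO arrays above background, and -8.90 in dense cells. On the other side lay genes on in sparse rescue cells. Lce1f, a late cornified envelope gene with near-identical copies, was at least 9.15-fold lower in the KO line in sparse cultures and was not above background in dense cells of either line. The dioxin-inducible oxidase Cyp1a1 was at least 4.63-fold lower in the KO line in sparse cultures and not above background in dense cells. Foxn1, a factor of hair and thymus epithelium, was at least 10.7-fold lower in the KO line in sparse cultures and not called in dense ones. Elastin was higher in KO cells by 1.45 in sparse cells, with 2 of 3 rescue arrays above background, and by 5.27 in dense cells, with 1 of 3 (in sparse cells not called at 0.87 without rescue day 3 or 1.22 without KO day 2). The brain aldolase Aldoc, above background on every array, was higher by 2.35 and 6.00. C3, also above background on every array, had a smaller difference in dense cells, 2.74 against 7.53. Hoxb5 and Krt18 kept their direction in dense cells, at -5.06 and 9.73, and Wt1 stayed on in KO cells only and Twist2 in rescue cells only.

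**Figure D5:**
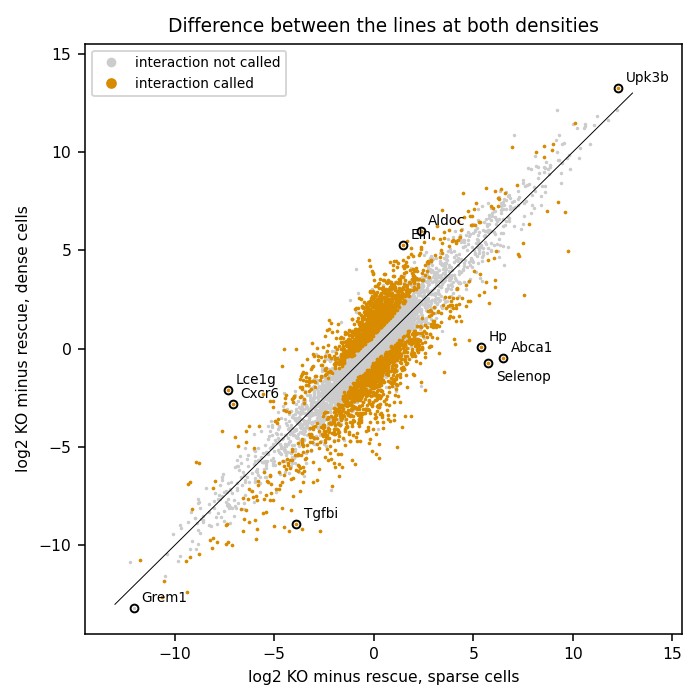
Difference KO minus rescue (log2) in sparse cells (x axis) against dense cells (y axis) for 12411 genes, orange where the interaction was called, with the line of equality; differences of genes on in 1 line only rest on background signal. Upk3b and Grem1 lie at opposite ends near the line, whereas Abca1, Selenop and Hp lie to the right of it and Lce1g and Cxcr6 to the left.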

How the data were processed

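Expression was measured on 12 one-colour Agilent arrays of mouse cells, 3 in each of 4 groups of line and density. The deposited scanner files were written by Feature Extraction 10.5.1.1, per the file headers (version 10 in the submitters' processing notes), and the processed signal in them is an intensity already corrected for background. The authors' deposited value table holds log2 values whose normalization is not given in the sources used here; its column medians lie at 8.378 to 8.394. Its day 3 columns correlated at -0.521 to -0.679 with the scanner file of their own sample and at 0.903 to 0.932 with that of the other line at the same density, whereas day 1 and 2 columns correlated at 0.883 to 0.941 with their own. The table was therefore an alternative only.

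Control spots and outlier spots were left out, spots of a probe were averaged, and log2 of the processed signal minus the 75th percentile of each array was used. A probe was kept where some group had it well above background on each of its 3 arrays. The kept probe with the highest mean signal stood for each gene. Of 4464 genes with several kept probes, 21 had probes called in opposite directions. Probes were named by matching the transcript accession in the scanner files, without its version, to the RefSeq gene table of GRCm38.p6, which gave 1 gene for 24375 of 41174 probes; the rest are unnamed here. limma 3.58.1 in R 4.3.3 was fitted to 12411 genes with 1 mean per group over all 12 arrays (8 residual degrees of freedom), with Benjamini-Hochberg adjustment over all genes. The fit was tested on simulated data with independent noise and no effect of day or slide. That test cannot speak to the confounding of line with slide or to the correlation of same-day arrays. The cultures of 1 line on separate days are the replicates, so that p-values measure the spread between days of 1 clone or line. An exact permutation test of 3 against 3 arrays cannot give a two-sided p below 0.1 and was not used. The number of arrays limits the precision.

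The comparison and the gene lists were chosen with earlier results of these data known. Genes named were the 15 largest rises and 15 largest falls, the same among genes well above background on all 6 sparse arrays, leading members of each list with bright uncalled ones, eligible members of 8 short lists, the 8 largest interactions each way, and Ptk2, Ptk2b, Trp53 and Abca1. Neighbours on a chromosome, the genes of the chromosome 6 stretch, Copg2 and Rbmy fall outside this rule and were chosen after their values were seen.

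Alternatives were background correction with normexp and an offset of 50 (on the median spot and background signals of the files), quantile normalization, centring on the median, a 75th percentile of detected probes, other filters and probe rules, the slide or the day as a block, the sparse arrays alone, the deposited table, leaving out each array, and scaling to spike-in RNA, which was chosen after seeing the data. Deviations of same-day arrays correlated above 0.1 in 11 of 18 pairs (-0.0366 to 0.295; 0.237, 0.0917 and 0.131 for the 3 sparse pairs); the labels tie each number to 1 experimental day with 1 culture of every group, so that the days pair the arrays, and the fit without the block was kept as designed. Promoter letters are from RefSeq. Some genes that the rule names are not reported here.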

Additional observations from a re-analysis of the deposited data

Results flagged for a closer look

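The difference between the lines depended on density for 81 of the 275 genes with values in the text, by the interaction of line and density in limma (adjusted p of 8.76e-06 to 0.0449), given here as the difference in sparse minus that in dense cells on the log2 scale. It was more positive in sparse cells for 40 of them and more negative for 41, beside 9.52% and 11.3% of all genes tested. The genes in the text were named in part for large differences and interactions, so that their counts cannot be weighed against these shares. The density at which each difference was larger is a description, and no reason for it was tested.

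Genes called higher in KO cells at both densities, with the larger difference in sparse cells, were Manba (0.86), Nid2 (1.18), Oasl1 (1.35), Synm (1.40), Cdkn1b (1.40), Lama5 (1.47) and Epha4 (1.54). Further genes of this kind were Itga7 (1.58), Bst2 (1.86), Des (1.99), Fos (2.08), Celsr1 (2.43), Pmaip1 (2.62) and C3 (4.79). Genes called higher at both, with the larger difference in dense cells, were Eln (-3.82), Aldoc (-3.65), Krt14 (-3.58), Krt7 (-3.43), Smpd3 (-3.30), E2f2 (-2.90) and Foxm1 (-2.59). Others with more of a difference in dense cells were Tfrc (-2.20), Cldn15 (-2.14), Ccnd2 (-2.05), Hoxd3 (-1.93), Hoxc9 (-1.85), Upk1b (-1.37) and Fbn2 (-1.36). Later in that order came Bambi (-1.24), Krt18 (-1.20), Efnb1 (-1.18), Tcf21 (-1.13), Mcm4 (-1.11), Cnn1 (-1.04) and Upk3b (-1.02).

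Genes called lower in KO cells at both densities, with the larger difference in sparse cells, were Cxcr6 (-4.28), Parvb (-2.57), Pcolce2 (-2.44), Igf1 (-1.53) and Mvk (-1.45). In the same class lay Asb4 (-1.22), Hoxa9 (-1.12), Twist2 (-0.98), Prrx2 (-0.95) and Ccl9 (-0.95). Genes called lower at both, with the larger difference in dense cells, were Itgb7 (0.89), Cdkn2b (1.24), Eya1 (1.37), Eif2s3y (1.47), Pon3 (1.59), Rbmy (1.98) and Perp (1.98). Other values of that kind were seen for Kdm5d (2.19), Rarb (2.20), Ccn5 (2.52), Plin4 (2.53), Gpnmb (2.98), Matn2 (3.98) and Tgfbi (5.01).

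Called in opposite directions at both densities were Pdgfra (3.63), Oasl2 (5.25) and Mme (5.38). Called higher in sparse cells and not called in dense cells were Arhgef28 (1.84), Adamts7 (3.53), Dcn (4.35), Hp (5.31), Selenop (6.48) and Abca1 (6.96). Called lower in sparse cells and not called in dense cells were Lce1f (-4.54), Cyp1a1 (-3.89), Foxn1 (-3.73), Peg10 (-1.48), Nedd9 (-1.27) and Cdkn1a (-1.03). Not called in sparse cells and called higher in dense cells were Id1 (-2.65), Krt8 (-1.87), Gja1 (-1.79) and Pon2 (-1.16). Not called in sparse cells and called lower in dense cells were Copg2 (1.27), Cdkn2a (1.42) and Runx2 (1.84).

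Among the settings under which the interaction was compared gene by gene, it was no longer called with centring on the median for 8 (Cdkn2b, Copg2, Eif2s3y, Itgb7, Lama5, Manba, Nid2 and Oasl1), with quantile normalization for 5 (Eif2s3y, Fbn2, Hoxc9, Tcf21 and Upk3b), with the slide as a block for 3 (Ccl9, Fbn2 and Oasl1) and with the day as a block for 2 (Cdkn1a and Twist2). Under normexp, spike-in scaling and the remaining settings the interactions of single genes were not compared.

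Of the 81 interactions, 19 were no longer called when 1 array was left out, and which array differed from gene to gene. Given as the number of the 12 arrays that ended the call and the values without them, these were Nid2 (1 array, 1.08), Upk1b (1 array, -1.28), Hoxd3 (2 arrays, -1.84 to -1.69), Rbmy (3 arrays, 1.71 to 1.92) and Asb4 (3 arrays, -1.16 to -1.15). Next came Copg2 (4 arrays, 1.06 to 1.24), Cnn1 (4 arrays, -1.01 to -0.90), Tcf21 (5 arrays, -1.13 to -1.00), Lama5 (6 arrays, 1.19 to 1.44) and Perp (6 arrays, 1.60 to 1.93). Then followed Ccl9 (7 arrays, -0.93 to -0.79), Eif2s3y (7 arrays, 1.17 to 1.44), Oasl1 (8 arrays, 1.14 to 1.34), Itgb7 (8 arrays, 0.74 to 0.95) and Cdkn1a (9 arrays, -1.12 to -0.75). The least stable calls were Twist2 (9 arrays, -1.04 to -0.79), Manba (10 arrays, 0.75 to 0.90), Prrx2 (10 arrays, -1.02 to -0.78) and Fbn2 (11 arrays, -1.47 to -1.12). For genes on in 1 line only, the value includes signals at background in the other line, so that a small interaction there can be a difference between background levels.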

How the results depend on the processing

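The 6068 genes called in sparse cells became 3384 with normexp (1485 higher and 1899 lower), in which a fixed offset of 50 units lies at different heights on arrays whose 75th percentiles ranged from 294 to 828 units. They became 9659 with spike-in scaling (572 higher and 9087 lower). The number called higher, 2888, was 1788 when arrays were centred on their median and 1914 with the slide as a block, where 4400 were called in all. The deposited value table as labelled gave 0 calls, 0 higher and 0 lower, in limma (85 genes with an unadjusted p under 0.05), and 5137 calls without day 3. The other settings gave 4879 to 6463 calls, and leaving out each array gave 5330 to 5752. The replicate block on day gave 6417 calls and 2956 interactions, against 2583, and changed none of the 241 calls in sparse cells on the genes with values in the text, but the interactions of Cdkn1a (-1.03) and Twist2 (-0.98) were no longer called.

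Of these 241 calls, 40 were lost with normexp, 11 with the slide as a block, 5 with centring on the median and 2 to 4 without any 1 of the 6 sparse arrays. Those lost with normexp were on Ahrr, Aldh3a1, Arhgap26, Bmpr1b, Ccl8, Cdkn1a, Col27a1, Cyp1a1, Elmo1, Epha3, Fat4, Foxn1, Fyn, Fzd8, Gapdh, Hoxa6, Hoxa7, Hoxb3, Hoxd3, Igf1, Itgb1, Itgb3, Jam2, Kdm5d, Lce1f, Meis3, Mme, Notch3, Ntn1, Oasl2, Pbx2, Rarb, Rb1, Rtp4, Sorbs2, Tap2, Tead3, Trp53, Twist1 and Wnt10b. The sign turned for Peg10 (0.11) and Rbmy (0.34) with normexp, for Hoxd3 (-0.0388) without the filter on dim probes, and for Eln (-0.0833) and Fbln1 (-0.0813) in the deposited table as labelled. The causes of these changes were not tested. Genes near background in both lines cannot be ranked, and a gene on in 1 line only has a lower bound.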
